A study of Mus musculus with 20 samples.

Results

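Genes of the mitochondrial carrier family (solute carrier family 25, Slc25a genes and the uncoupling protein genes Ucp1 to Ucp3) were compared between livers of mice that did and did not respond to an obesogenic diet. Members were the array probes whose gene name was Slc25a followed by a digit, or Ucp1, Ucp2 or Ucp3, which gave 79 of 41174 probes and 47 genes. Of these, 64 probes and 42 genes cleared background on 5 or more arrays of a group and entered the test, among 17194 genes and unnamed probes in all. A further 2 probes carry the older name Mcart1 (Slc25a51) and another 2 are described as family members under another name, and neither pair is counted here.

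The 20 livers came from male mice of the inbred strain C57BL/6J (C57BL/6 in the strain label), put at weaning on a high-fat diet (60% of calories as fat) and sampled when 6 weeks old. By their labels 10 were DIO responders, susceptible to diet-induced obesity, and 10 were DIO non-responders, resistant to it. Both groups share strain, sex, age and diet. The sources used here do not give how response was scored or whether the mice had been fasted. Each liver was read on 1 single-colour Agilent array, in 2 slide series that held 6 non-responders with 4 responders and 4 non-responders with 6 responders. No label ties a sample to a numbered animal, and p-values reflect only how these samples vary, which may be partly technical.

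Mitochondrial carriers are small proteins of the inner mitochondrial membrane that exchange metabolites between the cytosol and the matrix. In the liver they export citrate for fatty acid synthesis, import acylcarnitine for oxidation, move ornithine, aspartate and glutamate for the urea cycle, and swap ADP for ATP. The uncoupling proteins belong to the same family. Ucp1 lets protons back into the matrix of brown fat cells so that respiration makes heat, and hepatocytes are not known for making it.

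A level below is the log2 of a probe's processed signal minus the 75th percentile of its array, so that 0 is the signal at that percentile. Levels compare livers for 1 probe and not 1 probe with another. A difference is the responder minus the non-responder level from the fit with slide series as a term, with its standard error (SE), and adjusted p-values are limma's after Benjamini-Hochberg adjustment over all 17194 rows.

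Of the array probes printed here, 3 bear on the ADP/ATP carriers, whose coding sequences are close relatives, and 1 on Ucp1. Each probe is 60 bases long and reads through without a stop in at least 1 frame. In the first and second lines the capitals mark the bases that differ between the Slc25a4 probe and the Slc25a5 probe where they overlap. The third line is the other Slc25a4 probe and the last is the only Ucp1 probe, both without capitals.
Slc25a4, chr8:47292828-47292887 (mm9, minus strand): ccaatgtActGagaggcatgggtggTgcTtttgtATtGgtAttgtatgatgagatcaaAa
Slc25a5, chrX:34338475-34338534 (mm9, plus strand): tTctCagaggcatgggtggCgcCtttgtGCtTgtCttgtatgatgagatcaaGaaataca
Slc25a4, chr8:47294441-47294500 (mm9, minus strand): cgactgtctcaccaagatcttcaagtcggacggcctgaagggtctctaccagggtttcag
Ucp1, chr8:85821788-85821847 (mm9, plus strand): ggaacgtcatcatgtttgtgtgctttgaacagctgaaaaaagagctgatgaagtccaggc
The overlap of the first pair is 54 bases, of which 45 match and 9 differ (83.3% identical), and cross-hybridisation between them was not tested. The second Slc25a4 probe has no such overlap, with 20 of 59 bases matching at its best position.

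No carrier passed an adjusted p of 0.05 in limma's test, and neither did any other row (0% of 17194, smallest adjusted p = 0.272). At an unadjusted p under 0.05 there were 4 carriers. Of the 42, 2 were higher in responders, against 4.25% of all rows (731), and 2 were lower, against 3.73% (642). The higher ones were Slc25a1 and Slc25a21, which carry tricarboxylates and oxodicarboxylates. The lower ones were Slc25a27 and Ucp1, both of the uncoupling branch, and Ucp1 entered the test only through the non-responders, where it was high. In whole-liver RNA, fewer cells of a type and less RNA per cell cannot be told apart.

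In sign, 17 carriers were higher and 25 lower in responders, or 59.5% lower against 51.1% of all rows. The split was 21 to 21 when all kept probes of a gene were averaged and 12 to 30 after normexp. Normexp flattened the array of responder 1, whose log2 interquartile range was 0.031 against 2.34 after plain background subtraction. On responder 5 it was 0.72 against 3.41. Every normexp value given here carries that limit. Both corrections used an offset of 50. The median difference was -0.020 over carriers and -0.0030 over all rows, and the median absolute difference was 0.11 against 0.087. The lowest responder and highest non-responder levels, or the reverse, crossed in every one of the 42 genes, so 0 carriers had groups that did not overlap, against 0.00582% of all rows (1 gene). The interval of nearly every carrier in the plot by substrate spans 0, and Ucp1 is set far to the left of the rest.

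**Figure D1:**
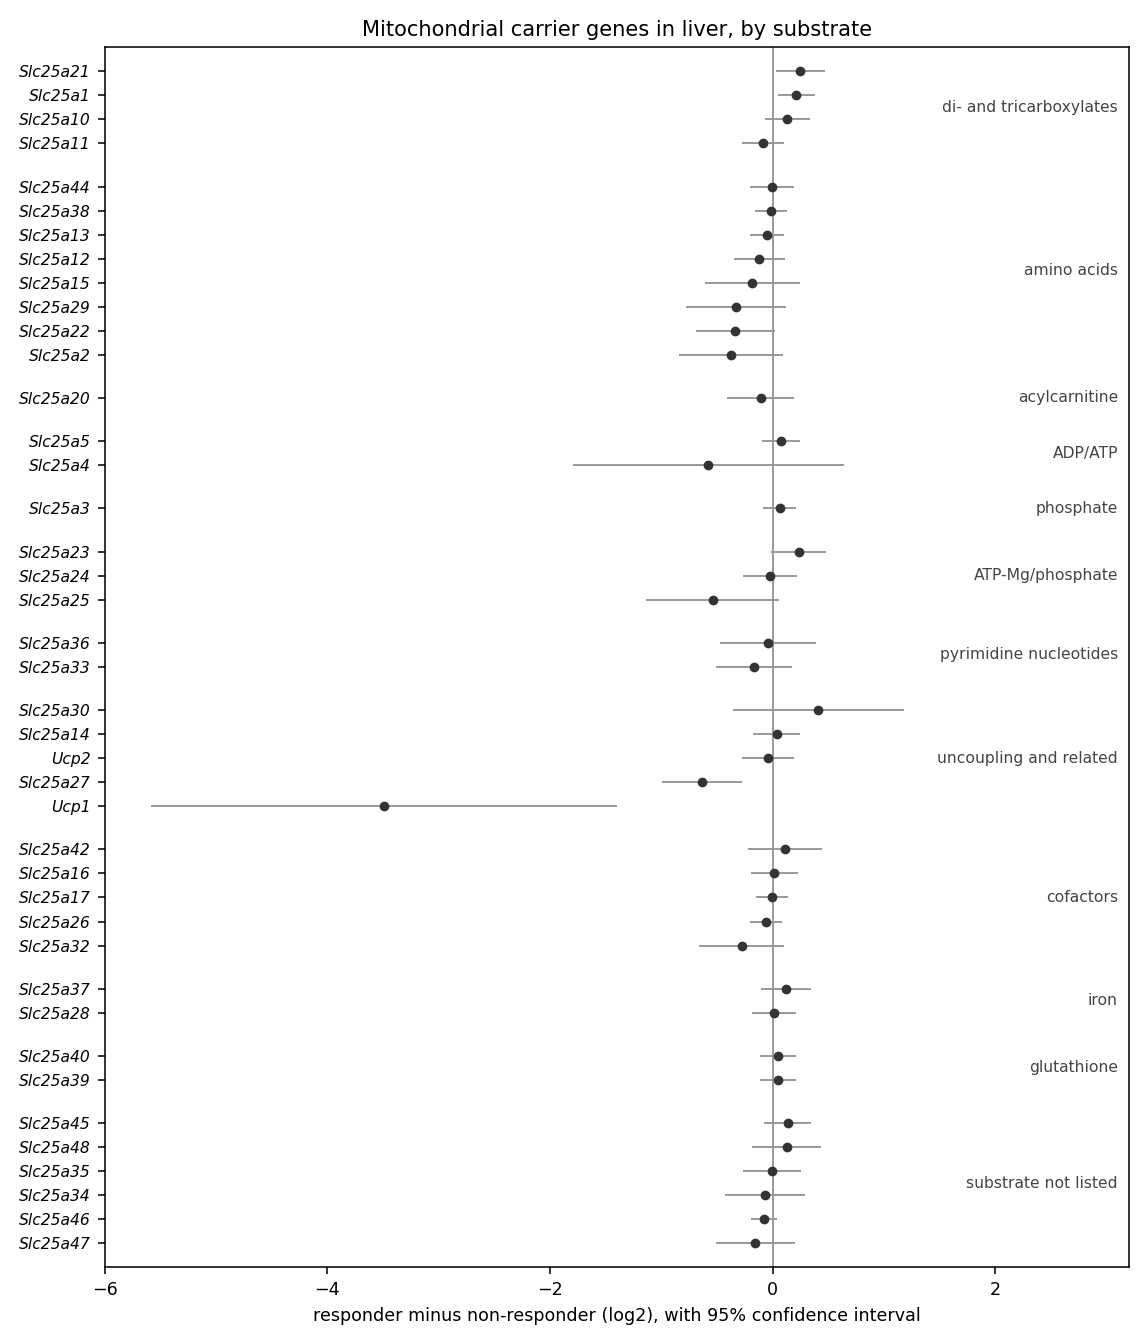
Difference in level (responder minus non-responder, log2, horizontal axis) for 41 of the 42 tested carrier genes, grouped by substrate; points are limma estimates over 20 livers and bars are 95% confidence intervals. The intervals of Slc25a1, Slc25a21, Slc25a27 and Ucp1 do not reach 0, and Ucp1 stands at -3.49.

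Di- and tricarboxylate carriers were mostly higher in responders, with 3 of 4 above 0 and a median difference of 0.17, though only 1 of 4 was above 0 after normexp background correction. Slc25a1 is the citrate carrier, which takes citrate out of mitochondria as the carbon source of lipogenesis. Its level ran from 4.24 through a median of 4.66 to 4.96 in non-responders and from 4.54 through 4.85 to 4.98 in responders. The groups overlapped, with 9 of 10 responders exceeding the mean of the non-responders on their slide series and responder 10 lowest of its group. The difference was 0.21 (SE 0.08, 1.16-fold, 95% CI 1.03 to 1.30), with an unadjusted p of 0.0161 and a limma adjusted p of 0.541, and the separate slide series gave 0.19 (first) and 0.24 (second).

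Slc25a21, the oxodicarboxylate carrier of lysine and tryptophan breakdown, ran from -2.38 through -1.77 to -1.46 in non-responders and from -2.14 through -1.5 to -1.26 in responders. Again 9 of 10 responders exceeded the mean of the non-responders on their slide series, and responder 3 was the lowest of its group. The difference was 0.25 (SE 0.10, 1.19-fold, 95% CI 1.02 to 1.38; unadjusted p = 0.0287, limma adjusted p = 0.598), and 0.21 and 0.28 in the separate series. Without non-responder 10 it was 0.19 with an unadjusted p of 0.0767. Slc25a10, the dicarboxylate carrier that trades malate or succinate for phosphate, differed by 0.13 (SE 0.10), and Slc25a11, the oxoglutarate-malate carrier of the malate-aspartate shuttle, by -0.09 (SE 0.09).

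**Figure D2:**
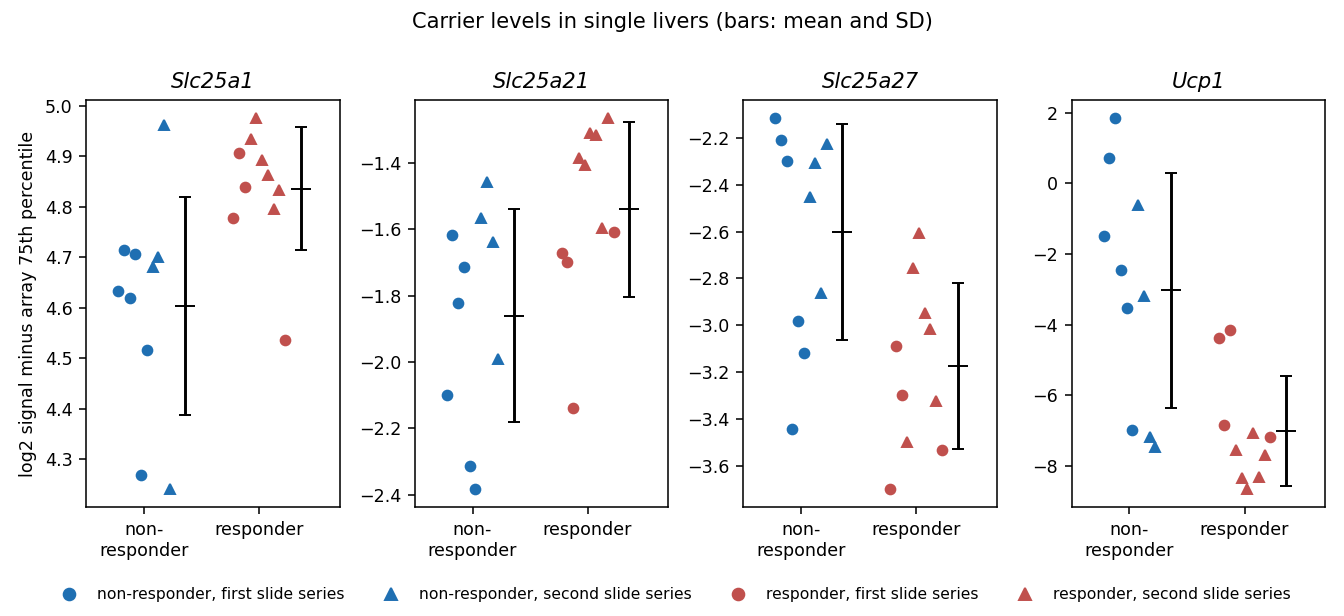
Level (log2 signal minus the array's 75th percentile, vertical axis) of Slc25a1, Slc25a21, Slc25a27 and Ucp1 in each of 10 non-responder and 10 responder livers; circles are the first slide series, triangles the second, and bars give mean and SD. The groups overlap in all 4 genes, and 7 non-responder livers but 1 responder liver had Ucp1 well above background.

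Amino acid carriers leaned the other way. All 8 tested were lower in responders, against 51.1% of all rows, with a median difference of -0.15, and the count was 8 of 8 after quantile normalization, 6 of 6 in the authors' deposited table, 7 of 8 after normexp or plain background subtraction, 7 of 8 without the slide series term or with the mean of all probes, and 6 of 8 in the second series alone. None of the 8 reached an unadjusted p of 0.05. By slide series the median differences were -0.32 (first) and -0.014 (second).

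Slc25a22, a glutamate carrier, ran from 3.25 through 3.44 to 4.38 in non-responders and from 2.83 through 3.22 to 3.82 in responders. Its difference was -0.34 (SE 0.17, unadjusted p = 0.0649, limma adjusted p = 0.644), at -0.66 in the first series but -0.011 in the second. Non-responders 5 and 6 held its highest levels. Slc25a2, an ornithine carrier, ran from -4.92 through -4.02 to -3.09 in non-responders and from -5.23 through -4.46 to -3.71 in responders. Its probe cleared background in 9 non-responders and 7 responders, and the difference was -0.37 (SE 0.22, unadjusted p = 0.112, limma adjusted p = 0.702; -0.60 and -0.15 in the 2 series). It was -0.23 without responder 1, and its sign turned after normexp (0.31). Slc25a29, a carrier of basic amino acids, ran from -1.38 through -0.74 to -0.21 in non-responders and from -2.11 through -1.16 to -0.20 in responders. Its difference was -0.33 (SE 0.21, unadjusted p = 0.143, limma adjusted p = 0.723; -0.45 and -0.21 in the 2 series), and its other probe gave -0.15. Without responder 10 it was -0.19.

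Slc25a13, or citrin, is the liver's aspartate-glutamate carrier and feeds aspartate to the urea cycle. It ran from 4.61 through 4.97 to 5.21 in non-responders and from 4.56 through 4.95 to 5.37 in responders, so that the ranges nearly coincided. The difference was -0.05 (SE 0.07, 95% CI -0.20 to 0.10, limma adjusted p = 0.859; -0.09 and -0.018 in the 2 series). Its muscle and brain counterpart Slc25a12 differed by -0.12 (SE 0.11), with its second kept probe at 0.14. The ornithine-citrulline carrier Slc25a15 differed by -0.18 (SE 0.20), and by -0.039 without non-responder 3. The glycine carrier Slc25a38 differed by -0.015 and the branched-chain amino acid carrier Slc25a44 by -0.0061. Slc25a18, a second glutamate carrier, was well above background on 0 of 20 arrays and was not tested.

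Slc25a20 exchanges acylcarnitine for carnitine and so admits long-chain fatty acids to oxidation. Its level ran from 2.22 through 2.63 to 3.0 in non-responders and from 1.82 through 2.49 to 3.21 in responders, with both the lowest and the highest liver among the responders. The pooled difference was -0.11 (SE 0.15, 95% CI -0.41 to 0.19, limma adjusted p = 0.855). It was -0.0058 without responder 2 and -0.18 without non-responder 9. The first series gave -0.44 (SE 0.15) and the second 0.22 (SE 0.20), and the difference between them had an unadjusted p of 0.0181 and a limma adjusted p of 0.455.

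The ADP/ATP carriers, which send newly made ATP out of mitochondria, differed in how much they varied. Slc25a5, the form common to most tissues, ran from 6.38 through 6.58 to 7.07 in non-responders and from 6.56 through 6.64 to 7.01 in responders, a difference of 0.07 (SE 0.08, 95% CI -0.09 to 0.24, limma adjusted p = 0.825; 0.014 and 0.14 in the 2 series). Slc25a4, the form of heart and skeletal muscle, ran from 2.46 through 4.82 to 6.33 in non-responders and from 2.42 through 2.98 to 6.2 in responders. The highest 8 livers were non-responders 1 to 5 and 7 and responders 2 and 7, and the groups overlapped fully. The difference was -0.58 (SE 0.58, limma adjusted p = 0.817), between -0.87 without responder 2 and -0.21 without non-responder 7, and the second Slc25a4 probe gave -0.54. The residual SD after group and slide series was 1.36 for Slc25a4, larger than that of 98.7% of all rows, where the median row had 0.23. Slc25a31, the germ-cell form, cleared background on 2 arrays, both of responders, and was not tested. The phosphate carrier Slc25a3, which supplies phosphate to ATP synthase, differed by 0.06 (SE 0.07).

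The ATP-Mg/phosphate carriers adjust the size of the matrix adenine nucleotide pool. Slc25a23 ran from 0.19 through 0.37 to 0.50 in non-responders and from 0.14 through 0.52 to 1.42 in responders, where 1 liver, responder 5, lay furthest above. The difference was 0.23 (SE 0.12, unadjusted p = 0.0632, limma adjusted p = 0.643; 0.20 and 0.26 in the 2 series). Slc25a25 ran from 3.42 through 4.81 to 5.46 in non-responders and from 2.73 through 4.09 to 4.95 in responders. Its difference was -0.54 (SE 0.28, unadjusted p = 0.0729, limma adjusted p = 0.650), with -1.01 and -0.07 in the separate series, and its other probes gave -0.50 and -0.39. Responder 10 held the lowest Slc25a25 level and non-responder 1 the highest, and without responder 10 the difference was -0.32 (unadjusted p = 0.212). Slc25a24 differed by -0.025 (SE 0.12). Slc25a41 also cleared background on 2 arrays, both of responders, and was not tested.

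Slc25a27, a brain-enriched relative of the uncoupling proteins, gave the smallest p among the carriers. Its level ran from -3.44 through -2.38 to -2.12 in non-responders and from -3.70 through -3.19 to -2.60 in responders, and the probe was well above background on all 20 arrays. Each of the 10 responders fell short of the mean of the non-responders on its slide series, although non-responders 4, 5, 6 and 9 lay within the responder range. The difference was -0.64 (SE 0.17, 1.55-fold, 95% CI 1.21 to 1.99; unadjusted p = 0.00140, limma adjusted p = 0.490), and -0.71 and -0.56 in the separate series. A second kept probe gave -0.53 (SE 0.23), but it cleared background in 3 responders and 6 non-responders and so passed the filter only through the group where it was high. The size of the difference depended on the background handling, at -0.31 after plain subtraction and 0.095, with the sign turned, after normexp. Both of these add an offset of 50, which shrinks log2 differences of dim probes. The difference was -0.48 in the authors' deposited table.

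Ucp1, the brown fat uncoupling protein, had a level that ran from -7.49 through -2.82 to 1.85 in non-responders and from -8.66 through -7.37 to -4.17 in responders. The non-responder livers spread widely. In order of number they stood at -1.48, 0.72, 1.85, -2.46, -3.53, -6.98, -0.60, -3.18, -7.19 and -7.49. Non-responders 6, 9 and 10 lay among the responders, and the other 7 had the probe well above background, as did 1 of 10 responders (responder 3). Of these 8 livers, 6 were in the first slide series, which held more non-responders, and 2 in the second. Second minus first series, the Ucp1 level differed by -2.47 (limma adjusted p = 0.0694). The probe passed the filter through the non-responders alone, where it was high, so a difference in that direction was built in and its p supports nothing. The fitted difference was -3.49 (SE 1.00; unadjusted p = 0.00240, limma adjusted p = 0.490), and -3.66 and -3.33 in the separate series. On 12 of 20 arrays the probe was not well above background, and no fold is given because the size followed the background handling. The difference was -1.35 after plain background subtraction, -0.71 after normexp and -3.27 in the authors' deposited table. Both the subtraction and normexp add an offset of 50 before the log2, which by itself shrinks differences of dim probes.

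Several genes listed as fat-cell markers were also lower in responders. Their values stand beside Ucp1 without a test of their part in its difference. Of 6 adipocyte markers, 5 were tested and all 5 were lower in responders (4 of 5 after normexp), against 51.1% of all rows. An unadjusted p under 0.05 was reached by 4 of them, against 3.73% of all rows lower at that level. They were the lipid droplet genes Plin1 (-1.68, SE 0.47) and Cidec (-1.16, SE 0.36), the fatty acid binding protein gene Fabp4 (-0.53, SE 0.20) and the adipokine gene Adipoq (-1.37, SE 0.58), with limma adjusted p-values of 0.490, 0.513, 0.541 and 0.598. Plin1, above background in 3 responders and 8 non-responders, and the fifth gene Retn (3 and 6) passed the filter only through the non-responders. This ties their sign, and the p of Plin1, to the filter, so neither gene adds to the count. Cidec, Fabp4 and Adipoq cleared it in both groups. In the first and second slide series, Cidec differed by -1.98 and -0.35, Fabp4 by -0.44 and -0.63 and Adipoq by -1.11 and -1.63. Cidec and Fabp4 were well above background on 10 of 10 arrays of each group. Which cells of these livers made the marker RNAs was not tested. The summed level of the 5 ran from 2.83 to 4.53 in non-responders and from 2.46 to 3.57 in responders. Summed levels add linear signals before the log2, so bright genes weigh most, here Fabp4 and Cidec. The defining fat-cell gene Lep was well above background on 0 arrays. Of 5 brown fat markers, Ucp1 among them, 4 were tested and all 4 were lower (3 of 4 in the second series alone). Of these, the sign of Ucp1 was tied to the filter, and Cox7a1 is also a heart and muscle gene. Cidea differed by -1.57 (SE 0.72, unadjusted limma p = 0.0414), Cox7a1 by -0.63 (SE 0.57, p = 0.283) and Elovl3 by -0.21 (p = 0.699). Dio2 cleared background in 1 responder and 2 non-responders. The brown list's summed level, set mostly by Elovl3 and Cox7a1, ran from 2.74 to 6.34 in non-responders and from 3.06 to 5.73 in responders. Both genes cleared background on 10 of 10 arrays of each group, whereas Ucp1 did so in 1 responder and 7 non-responders. The sum therefore need not follow Ucp1 or brown fat. In the 8 livers with Ucp1 well above background, Cidea levels ran from -3.06 to 1.63, and in the other 12 from -5.23 to -1.86. This comparison was chosen after the values were seen and was not tested.

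Slc25a4 moved with muscle genes. Over 20 livers it followed Cox7a1, a heart, muscle and brown fat subunit of cytochrome oxidase, at r = 0.99 (rho = 0.97), with r of 0.99 and 0.99 in the 2 slide series and 0.98 without the 2 livers farthest from the median. It followed Actc1, cardiac actin, at r = 0.94 (rho = 0.93; 0.94 and 0.93 in the 2 series, 0.92 without 2 livers) and Ckm, muscle creatine kinase, at r = 0.85 (rho = 0.93; 0.97 and 0.79, 0.84 without 2 livers). Each of these permutation p-values was 1e-05, the smallest that 100000 permutations can give, or 4.33e-05 adjusted over 13 pairs, 5 of which were chosen after their values were seen. Slc25a5 and Cox7a1 gave r = 0.28 (rho = 0.15, permutation p = 0.240 and 0.540, adjusted 0.313 and 0.626; 0.38 and -0.26 in the 2 series; 0.0039 without 2 livers). All 6 muscle markers were tested and all 6 were lower in responders, none at an unadjusted p under 0.05, and their summed level ran from -1.65 to 7.55 in non-responders and from -2.84 to 7.54 in responders. Responders 2 and 7, with Slc25a4 at 6.2 and 6.07, had Ucp1 at -6.84 and -7.07. Non-responders 1 to 5 and 7, also among the highest livers for Slc25a4, went the other way. Their Ucp1 levels were -1.48, 0.72, 1.85, -2.46, -3.53 and -0.60, all well above background. The relation of Slc25a4 to Ucp1 was not tested. The part of the muscle markers in the Slc25a4 values was not tested.

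**Figure D3:**
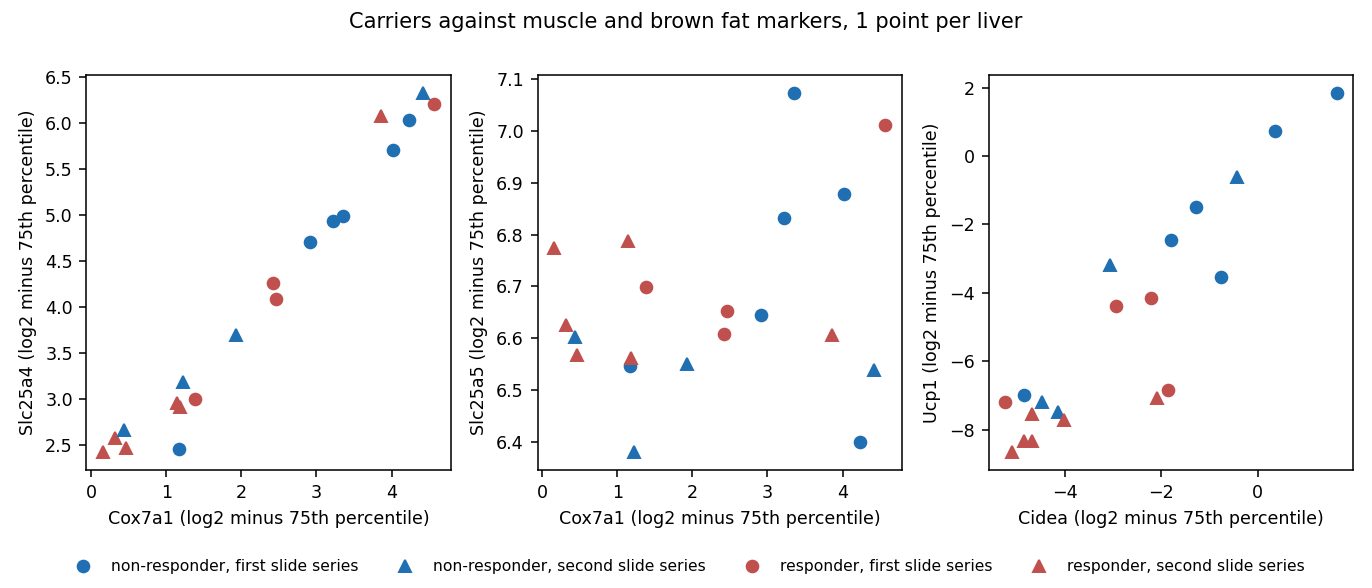
Levels of Slc25a4 against Cox7a1, Slc25a5 against Cox7a1, and Ucp1 against Cidea (both axes log2 signal minus the array's 75th percentile), 1 point per liver; blue is non-responder, red responder, circles the first slide series, triangles the second. Slc25a4 rises along a line with Cox7a1 (r = 0.99 over 20 livers) while Slc25a5 does not (r = 0.28).

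Slc25a27 was set beside Cidea alone. Their correlation, also chosen after the values were seen, was r = 0.41 (rho = 0.38, permutation p = 0.072 and 0.10, adjusted 0.117 and 0.207; 0.71 and 0.32 in the 2 series, 0.27 without the 2 farthest livers). Within responders it was -0.13 and within non-responders 0.33.

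The other uncoupling relatives all missed an unadjusted p of 0.05. Ucp2, found in macrophages and many other cells, ran from -0.30 through -0.16 to 0.43 in non-responders and from -0.80 through -0.22 to 0.29 in responders. Its difference was -0.04 (SE 0.11, 95% CI -0.28 to 0.19, limma adjusted p = 0.937; -0.05 and -0.034 in the 2 series). Slc25a14 differed by 0.035 (SE 0.10). Slc25a30, a kidney-enriched relative, had the highest positive difference of the 42 carriers, 0.41 (SE 0.37), with its other probes at 0.36 and 0.23. It was 0.22 without non-responder 10 and 0.27 without responder 4, and its sign was opposite in the 2 series (-0.68 and 1.51). Ucp3, the muscle form, cleared background in 2 responders and 4 non-responders and was not tested. The whole uncoupling branch thus had 2 of 5 tested members above 0 and 3 below.

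The carriers of nucleotides and cofactors described here all missed an unadjusted p of 0.05 at their brightest probe. The pyrimidine nucleotide carriers Slc25a33 and Slc25a36 differed by -0.17 (SE 0.16) and -0.04 (SE 0.21). Slc25a32, which brings folate or FAD into mitochondria, ran from 0.022 through 0.55 to 0.99 in non-responders and from -0.35 through 0.24 to 1.31 in responders, with responder 6 highest. Its difference was -0.28 (SE 0.18, unadjusted p = 0.145, limma adjusted p = 0.724), with -0.67 and 0.11 in the separate series. The coenzyme A carrier Slc25a42 differed by 0.11, Slc25a16 by 0.014 and the S-adenosylmethionine carrier Slc25a26 by -0.06. The peroxisomal member Slc25a17 differed by -0.0035 at its brightest probe. Its other probes gave 0.19 (unadjusted limma p = 0.0244, adjusted p = 0.564 over all kept probes) and 0.10.

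The mitoferrins Slc25a37 and Slc25a28 import iron for heme and iron-sulphur clusters, and differed by 0.12 (SE 0.11) and 0.0092 (SE 0.09). The glutathione carriers Slc25a40 and Slc25a39 differed by 0.05 and 0.046, each with an SE of 0.08. Among 6 members put in no substrate group, 2 were above 0 and 4 below. Slc25a47, a carrier made mostly in liver, ran from 6.99 through 7.27 to 7.69 in non-responders and from 6.55 through 7.05 to 7.88 in responders, a difference of -0.16 (SE 0.17, 95% CI -0.51 to 0.20, limma adjusted p = 0.828; -0.28 and -0.027 in the 2 series). It was -0.06 without responder 10 and -0.26 without responder 2. Slc25a45 differed by 0.13, Slc25a48 by 0.13, Slc25a46 of the outer membrane by -0.08, Slc25a34 by -0.07 and Slc25a35 by -0.0066. The other kept Slc25a46 probes gave -0.12 and -0.27, the latter at an unadjusted limma p of 0.0143 (adjusted p = 0.524 over all kept probes). Slc25a43 had 2 probes, well above background on 0 arrays.

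**Figure D4:**
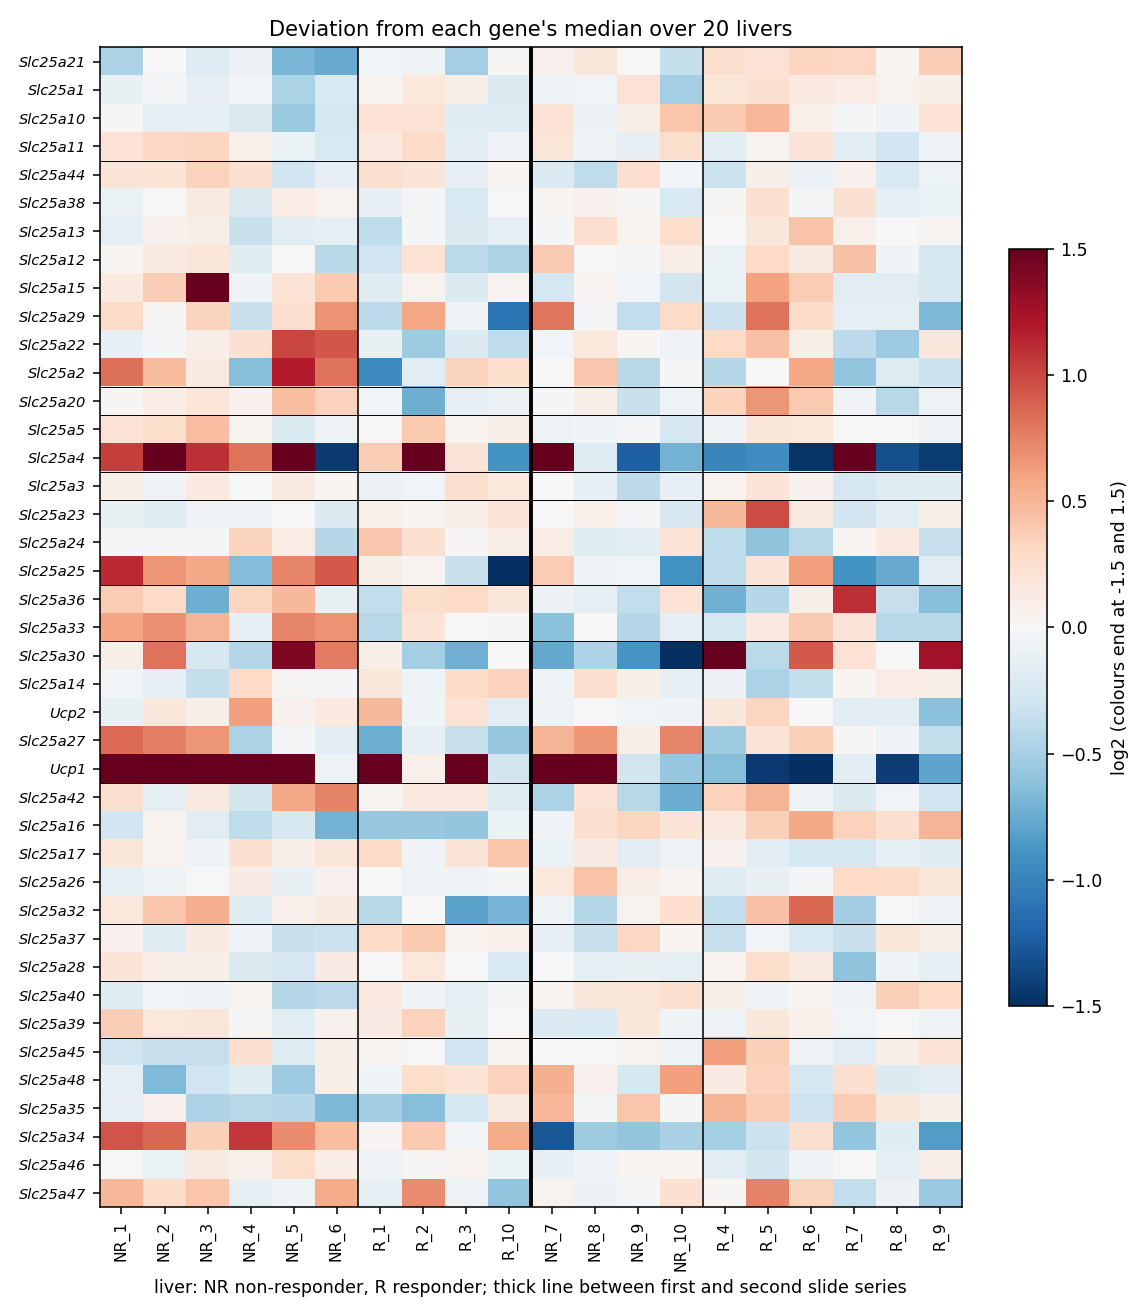
Deviation of 41 tested carriers (rows, in the substrate order of the difference plot) from their own medians over 20 livers (columns), in log2 units with colours ending at -1.5 and 1.5; NR is non-responder, R responder, and the thick line parts the first slide series from the second. Ucp1 and Slc25a4 vary most, with residual SDs of 2.33 and 1.36, and Slc25a30 and Slc25a25 follow with 0.85 and 0.66.

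The slide series bore on several carriers. Between the series themselves, 8 of 42 carriers differed at a limma adjusted p under 0.05 (19.05%), against 30.3% of all rows (5206). The responder difference had the same sign in both series in 24 of 42 carriers (57.1%), against 48.8% of all rows. The difference between the series in the responder effect passed an adjusted p of 0.05 in 0 carriers and in 0% of all rows, and reached an unadjusted p under 0.05 in 6 carriers, against 9.68% of all rows (1664). These 6 were Slc25a30, Slc25a33, Slc25a34, Slc25a48, Slc25a20 and Slc25a32, with limma adjusted p-values between 0.365 and 0.474. Slc25a30 differed most between them, with -0.68 (SE 0.35) in the first series against 1.51 (SE 0.39) in the second. Its levels in the first series were 1.27, 1.99, 0.94, 0.75, 2.58 and 1.96 in non-responders 1 to 6 and 1.28, 0.67, 0.46 and 1.18 in responders 1, 2, 3 and 10. In the second they were 0.42, 0.72, 0.29 and -0.32 in non-responders 7 to 10 and 2.82, 0.78, 2.09, 1.40, 1.18 and 2.43 in responders 4 to 9. The groups thus stood in opposite order in the 2 series. Slc25a48 went the other way, with 0.48 first and -0.23 second, and the remaining 4 were lower in responders of the first series and higher in those of the second.

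**Figure D5:**
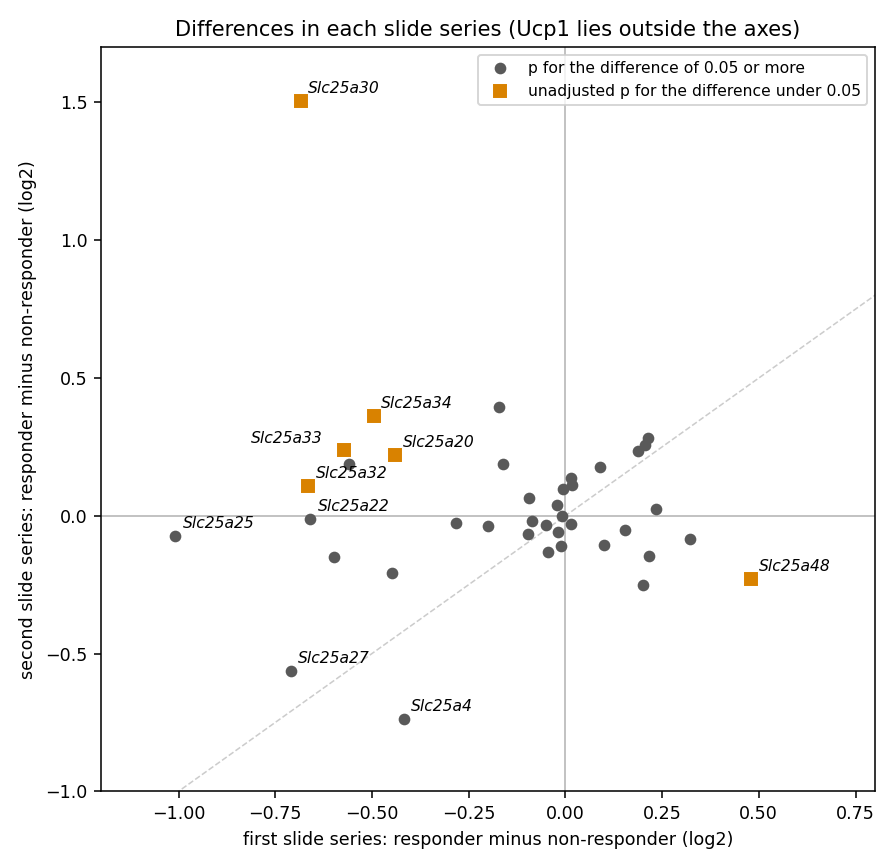
Responder minus non-responder difference (log2) of 40 tested carriers, without Ucp1, in the first slide series (horizontal) and the second (vertical); squares have an unadjusted p under 0.05 for the difference between series and the dashed line marks equal differences. Slc25a27 lies near the line at -0.71 and -0.56, and Slc25a30 far from it at -0.68 and 1.51.

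Genes that work beside the carriers were read from lists of pathway partners, and 0 of them passed an adjusted p of 0.05 in limma's test. The counts in this and the next paragraph stand beside 51.1% of all rows lower. At an unadjusted p under 0.05, 4.25% of all rows were higher and 3.73% lower. The splits of higher and lower genes depended on the setting. After normexp, which flattened the array of responder 1, most members of each of the 7 lists were lower, as were all 6 hepatocyte markers. In the second series alone most genes of beta-oxidation (9 of 16) and of iron and heme (8 of 12) were higher, and in the first alone most of lipogenesis were lower (8 of 15) and the urea cycle list split 7 to 7. Of 15 genes of citrate export and lipogenesis, 9 were higher and 6 lower, with 1 at an unadjusted p under 0.05, the pyruvate kinase gene Pklr (0.41, SE 0.19, limma adjusted p = 0.624). Acly, which splits the exported citrate, differed by 0.26 (SE 0.14). Of 16 genes of the carnitine shuttle and beta-oxidation, 6 were higher and 10 lower, with 0 at that level. Of 14 tested genes of the urea cycle and amino acid shuttle, 5 were higher and 9 lower, and Got1, the cytosolic aspartate aminotransferase of the malate-aspartate shuttle, was the 1 past an unadjusted 0.05 (-0.68, SE 0.27, limma adjusted p = 0.574).

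Of 12 ATP synthase, porin and pore genes, 1 was higher and 11 lower, with a median difference of -0.028 and 0 at an unadjusted p under 0.05. The 12 iron and heme genes split into 5 higher and 7 lower, also with 0. Of 17 genes of glutathione, folate, coenzyme A and thiamine metabolism, 12 were higher and 5 lower, and Shmt2, the mitochondrial serine hydroxymethyltransferase, was the 1 past an unadjusted 0.05 (0.19, SE 0.07, limma adjusted p = 0.543). Of 11 tested regulators of mitochondrial genes, 4 were higher and 7 lower. The coactivator genes Ppargc1a (-0.46, SE 0.20) and Ppargc1b (-0.42, SE 0.18) were the 2 past an unadjusted 0.05, with limma adjusted p-values of 0.603 and 0.598.

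Across livers, 8 carriers were set beside a partner gene, and no pair passed a Benjamini-Hochberg adjusted p of 0.05 over these 8. Slc25a1 and Acly gave r = 0.50 (rho = 0.37, permutation p = 0.0255 and 0.112, adjusted 0.0891 and 0.298), with 0.75 and 0.19 in the separate series, and 0.33 without the 2 livers farthest from the median. Slc25a13 and Ass1, the urea cycle enzyme that uses its aspartate, gave r = 0.49 (rho = 0.46, permutation p = 0.0285 and 0.0417, adjusted 0.0891 and 0.167; 0.74 and 0.54 in the 2 series, 0.36 without 2 livers). Slc25a20 and Cpt1a, the step before it in the carnitine shuttle, gave r = 0.45 (rho = 0.49, permutation p = 0.0445 and 0.0309, adjusted 0.0891 and 0.167). It was 0.30 and 0.73 in the 2 series, and 0.37 without 2 livers. Within responders this pair had r = 0.64, but within non-responders -0.20. The same 2 values were 0.36 and 0.33 for Slc25a1 with Acly, and 0.39 and 0.75 for Slc25a13 with Ass1. The relation of Ucp2 with the macrophage gene Adgre1 (r = 0.46, rho = 0.21, permutation p = 0.0421 and 0.375, adjusted 0.0891 and 0.60; 0.65 and 0.018 in the 2 series) rested on 2 livers and was -0.15 without them. The remaining pairs were weaker, at r = 0.29 for Slc25a25 with Ppargc1a, 0.25 for Slc25a4 with Slc25a5, 0.11 for Slc25a37 with Alas2 and -0.04 for Slc25a15 with Otc. Their permutation p-values ran from 0.214 to 0.837 for r and from 0.154 to 0.774 for rho.

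As a check of the tissue, the 6 hepatocyte markers tested were well above background on at least 9 of 10 arrays of each group, and their summed level ran from 10.4 to 11.4. Between 55.8% and 71.2% of spots were well above background on each array, 0 were saturated, and levels of any 2 arrays correlated at 0.954 to 0.991. Pancreatic acinar genes also varied between livers, from -1.46 to 7.71 in responders and -0.76 to 7.63 in non-responders as summed levels, with all 6 lower in responders (5 of 6 in the first series alone) and 0 at an unadjusted p under 0.05. The summed levels of macrophage markers ran from 5.63 to 7.38, of erythroid markers from 6.37 to 7.53 and of lymphocyte markers from -1.2 to -0.35, and 0 of their 14 genes reached an unadjusted p of 0.05.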

How the data were processed

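The scanner files hold spot intensities on a linear scale, made with Agilent Feature Extraction. File headers give version 10.5.1.1, while the submitters' processing notes name 9.1. Per the file headers, the deposited processed intensity had background subtracted and a spatial trend removed, and no scaling between arrays was seen in its values. The authors' deposited table of intensities, which no source used here explains, served as an alternative, and how its values were scaled between arrays stays unknown. Its values are uncentred and on a linear scale.

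Levels are log2 values of the processed signal from which the 75th percentile of the same array was subtracted, without control and outlier-flagged spots, and repeated spots were averaged. A probe needed to clear background on 5 arrays of 1 group (26156 did), and the brightest such probe stood for its gene. Members were matched on the array's gene name, and other probes by accession or symbol to RefSeq (GRCm38.p6), for names only. Probe positions and sequences are those of the array files (mm9), and no genome or protein sequence was used here. Groups were compared with limma 3.58.1 (R 4.3.3), with group and slide series as terms, which left 17 residual degrees of freedom. The fit was tested on simulated data. Correlations were tested by 100000 two-sided permutations. The 75th percentile of signal was 280.1 to 417 in the first series and 413 to 657 in the second, and the number of arrays limits the precision.

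Members, lists and tests were chosen with earlier results of these data known. The tested carriers are named except 1, which is not reported here. Full values are given for the 10 with the smallest p and for Slc25a1, Slc25a5, Slc25a13, Slc25a20, Slc25a25, Slc25a27, Slc25a47 and Ucp2, while Slc25a4 and Slc25a30 were added after their values were seen. Partner genes are named at an unadjusted p under 0.05, besides Acly. Alternatives were normexp (offset 50), quantile normalization, the authors' deposited table, 2 other filters, no series term, a block on the title number, slide as a random block, each series alone, array weights, a trended robust prior, the mean of all probes, each probe singly and leaving out each array. Plain background subtraction (offset 50) and 5 pairs were added after seeing the data.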

Additional observations from a re-analysis of the deposited data

Results flagged for a closer look

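In each group of 10 livers the highest and lowest level of each carrier was set against its nearest neighbour, and 6 of 84 groups held a liver whose gap, as a share of the group's range, was over Dixon's critical value for 10 samples. Chance alone flags about 1 in 20 groups. For Slc25a1, responder 10 stood apart at 4.537, below the next responder at 4.778. For Slc25a21, responder 3 stood at -2.138, below the next at -1.698. Slc25a5 was highest in responder 2 at 7.013, where the next responder had 6.788 and Slc25a4 was also the highest of its group. Slc25a15 reached 2.571 in non-responder 3, with the next at 1.115. Slc25a26 reached 1.199 in non-responder 8, with the next at 0.9356. Ucp2 reached 0.4262 in non-responder 4, with the next at -0.0176, in the liver that also had the highest summed macrophage and erythroid markers. The causes were not tested.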

How the results depend on the processing

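The count of carriers past an adjusted p of 0.05 was 0 in the main setting and in all 35 alternatives. The count at an unadjusted p under 0.05 was 4. It became 2 with normexp, 7 (of 64) with every kept probe fitted singly, 11 in the first slide series alone and 8 with the replicate block on the title number in place of the series term, and lay between 3 and 7 when 1 array was left out, with 7 without responder 6. To see whether the title numbers pair samples, levels were taken as deviations from each gene's mean in its group. These deviations correlated between -0.29 and 0.61 for same-numbered responders and non-responders, above 0.1 in 8 of 10 pairs. Only 1 of 10 responders correlated best with the non-responder of its own number. The numbers were therefore not taken to pair the samples. Normexp turned the sign of 17 of 42 carriers, among them Slc25a1 (-0.27), Slc25a2 (0.31), Slc25a5 (-0.40) and Slc25a27 (0.095). On responder 1 the interquartile range of its log2 values was 0.031, against 2.34 after plain subtraction, and on responder 5 it was 0.72 against 3.41. Plain subtraction, added after seeing the data, turned 2 of 42. Slc25a13 turned to 0.0028 both without the series term and with the replicate block. Slc25a20 (0.22) and Slc25a32 (0.11) were above 0 in the second series alone. Ucp2 lay between -0.097 and 0.0092 when 1 array was left out, and turned to 0.0015 without non-responder 4, 0.0016 without responder 10 and 0.0092 without responder 9. Except where a value above shows it, the cause was not tested. Probes near background, Ucp1 first, have differences whose size depends on the background correction and its offset. A p that misses the threshold does not show equal levels.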
